A study of Mus musculus with 12 samples.

Results

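The genes described here encode the small heat shock proteins of skeletal muscle and 2 of their partners, the co-chaperone Bag3 and the muscle filamin filamin C. They are *Hspb1*, *Hspb2*, *Hspb3*, *Cryab*, *Hspb6*, *Hspb7*, *Hspb8*, *Bag3* and *Flnc*, 9 of the 55450 genes in the count table, found by mouse symbol and Ensembl identifier. All 9 were among the 19276 genes with enough counts to be tested. RNA came from pieces of the tibialis anterior (TA), a fast muscle of the lower leg, of WT mice of 129Pas genetic background (129SvPas in the study's methods), untreated, and was sequenced shortly before birth (E18.5) and in young mice of 2 wks and of 7 wks. Each age had 4 mice and each mouse gave 1 library, 12 libraries in all. The sex of the mice, and whether mice of an age were littermates, are not given in the sources used here. The series was made to follow muscle after birth, so the comparisons were 2 wks with E18.5, 7 wks with 2 wks, and 7 wks with E18.5.

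Small heat shock proteins are short chaperones that form large oligomers, hold unfolding proteins in solution without using ATP and pass them on to the Hsp70 chaperones for refolding or to degradation. In muscle they are found at the Z-disc, the anchor of the sarcomere, where contraction unfolds structural proteins. There Bag3 joins Hspb8 to Hsp70 and the ubiquitin ligase CHIP, and this complex sends damaged filamin C, an actin cross-linker, to the lysosome, a route named chaperone-assisted selective autophagy.

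Many chaperone genes are switched on through heat shock elements, repeats of the letters GAA and TTC that heat shock factors bind. The promoter windows below, from 250 bases before to 50 bases after an annotated start, are shown because they hold such a pair of units, written GAANNTTC, on either strand (the motif reads the same on both), which stands in capitals. The windows come from RefSeq on GRCm38.p6, the build called mm10, and read 5′ to 3′ in the direction of the gene. They lie at chr5:135887669-135887968 (*Hspb1*, plus strand), chr13:113663627-113663926 (*Hspb3*, minus strand), chr7:30553051-30553350 (the second of 2 windows of *Hspb6*, plus strand), chr5:116422815-116423114 (*Hspb8*, minus strand) and chr7:128523333-128523632 (*Bag3*, plus strand).
Hspb1: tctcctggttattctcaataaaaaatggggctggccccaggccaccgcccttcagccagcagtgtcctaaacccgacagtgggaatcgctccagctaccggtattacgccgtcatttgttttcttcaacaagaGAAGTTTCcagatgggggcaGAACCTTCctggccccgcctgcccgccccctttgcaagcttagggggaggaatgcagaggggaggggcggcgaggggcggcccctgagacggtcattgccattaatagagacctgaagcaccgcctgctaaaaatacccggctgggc
Hspb3: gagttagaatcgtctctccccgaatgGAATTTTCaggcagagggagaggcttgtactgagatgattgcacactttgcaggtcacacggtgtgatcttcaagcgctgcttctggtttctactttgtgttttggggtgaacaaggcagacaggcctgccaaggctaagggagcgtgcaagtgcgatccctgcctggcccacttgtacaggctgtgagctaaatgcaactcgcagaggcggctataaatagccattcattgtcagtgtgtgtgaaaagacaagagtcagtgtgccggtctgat
Hspb6: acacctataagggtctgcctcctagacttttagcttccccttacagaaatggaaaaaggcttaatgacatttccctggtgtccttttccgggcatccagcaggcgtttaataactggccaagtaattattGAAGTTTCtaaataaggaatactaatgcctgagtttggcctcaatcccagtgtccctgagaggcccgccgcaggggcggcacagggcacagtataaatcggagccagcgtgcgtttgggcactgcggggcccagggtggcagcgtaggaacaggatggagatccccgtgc
Hspb8: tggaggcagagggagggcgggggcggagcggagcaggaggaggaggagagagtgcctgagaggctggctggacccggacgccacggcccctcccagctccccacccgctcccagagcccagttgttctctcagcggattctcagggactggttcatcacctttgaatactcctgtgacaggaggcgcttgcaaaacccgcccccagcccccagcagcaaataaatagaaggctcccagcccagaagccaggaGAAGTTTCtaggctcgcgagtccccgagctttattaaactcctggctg
Bag3: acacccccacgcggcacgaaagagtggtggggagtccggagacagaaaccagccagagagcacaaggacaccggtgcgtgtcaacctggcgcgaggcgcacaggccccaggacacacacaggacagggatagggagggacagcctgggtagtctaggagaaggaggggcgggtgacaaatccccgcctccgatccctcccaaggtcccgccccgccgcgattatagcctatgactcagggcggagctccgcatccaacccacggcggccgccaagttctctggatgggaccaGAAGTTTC

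Windows were given for 7 of the 9 genes, 9 windows in all, and *Cryab* and *Hspb2* had none. The 2-unit element was in the windows of 5 of the 7 genes, against 7.86% of the 32817 promoter windows of the reference. *Hspb1* had it at positions -117 to -110 and -97 to -90, counted from 1 at the first transcribed base and from -1 before it. In *Hspb3* it lay at -224 to -217 and in *Hspb6* at -120 to -113. In *Hspb8* (3 to 10) and *Bag3* (43 to 50) it lay after the start. A 3-unit element, GAANNTTCNNGAA, was in 0 of the 7 genes and in 0.603% of all windows. A MEF2 site was found in *Hspb3* alone of the 7, with a TATAAA box inside it (1.86% and 13.6% of all windows), and *Hspb6* also had a TATAAA box. E-boxes, CANNTG, were in 4 of the 7 genes and in 72.3% of all windows, and a CArG box was in 0 of the 7 and in 1.63%. These are matches of letters in a fixed window, and no binding was measured.

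The libraries held 63018968 to 123449246 counted reads. Levels below are CPM, a count as a share of its library after scaling of the library size by TMM, which sets the bulk of genes level between libraries. Tests are those of edgeR, and called means an adjusted p under 0.05. The p-values weigh the difference between ages against the spread between these mice. The TMM factors ran from 1.62 to 1.77 at E18.5, from 0.810 to 0.946 at 2 wks and from 0.667 to 0.699 at 7 wks. The ages were thus scaled very differently. Scaling to total counts instead moved the median change over all tested genes, on the log2 scale, from -0.09 to -1.02 (2 wks versus E18.5), from -0.03 to -0.38 (7 versus 2 wks) and from -0.09 to -1.37 (7 wks versus E18.5). From E18.5 to 2 wks it called 2550 genes up and 11923 down, where TMM gave 6074 and 6594. The summed CPM of 8 muscle fibre markers, all detected in every library, was 10745 to 19300 at E18.5, then 93035 to 125361 at 2 wks and 110390 to 140333 at 7 wks. In RNA from whole muscle, more fibre RNA in the sample and more RNA of a gene per fibre cannot be told apart. E18.5 replicate 2 had the highest sum of its age for markers of fibres, smooth muscle, cardiomyocytes, fibroblasts and tendon, Schwann cells, cartilage and bone, and epidermis, and 2 wks replicate 4 had 5699 CPM of slow and oxidative fibre markers, against 1378 to 1550.0 in the other 2-wk libraries. Of that sum 4974 CPM came from *Myh2*, the myosin of fast oxidative fibres. The other genes of that list were mixed in this library. *Myh7* (4.44) and *Atp2a2* (80.2) were at their lowest of that age there, and *Casq2* (219) and *Myoz2* (288) at their highest. *Tnnt1*, *Tnni1*, *Tnnc1*, *Myl2* and *Myl3* were at neither end. Adipocyte markers summed to 1926 and 2693 CPM in E18.5 replicates 3 and 4, against 231 and 178 in replicates 1 and 2.

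All of these genes but *Hspb1* rose between E18.5 and 2 wks, and 0 of the 9 passed the test from 2 to 7 wks. From E18.5 to 2 wks 8 of the 9 genes rose, by 3.03-fold (*Hspb8*) to 22.9-fold (*Hspb6*), and 0 fell, where 31.5% of all tested genes rose and 34.2% fell. The median log2 fold change of the 9 was 2.12, against -0.09 over all tested genes. In 7 of the 9 every 2-wk library lay above every E18.5 library, as in 28.9% of all tested genes. From 2 to 7 wks, where edgeR called none of them, 13.5% of all genes rose and 13.9% fell. In that interval *Hspb3* alone had an unadjusted p under 0.05 (0.0404), and 0 of the 9 had every 7-wk library above every 2-wk library (17.3% of all tested genes). DESeq2 also called 0 of the 9. From E18.5 to 7 wks 8 of the 9 rose (34.3% of all tested genes), and 8 showed no overlap (30.2%). Scaled to total counts, 7 of the 9 rose to 2 wks (13.2% of all tested genes), *Hspb1* and *Hspb3* fell from 2 to 7 wks (28.0% of all tested genes), and 6 rose and 1 fell from E18.5 to 7 wks (11.9% and 69.0% of all tested genes).

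**Figure D1:**
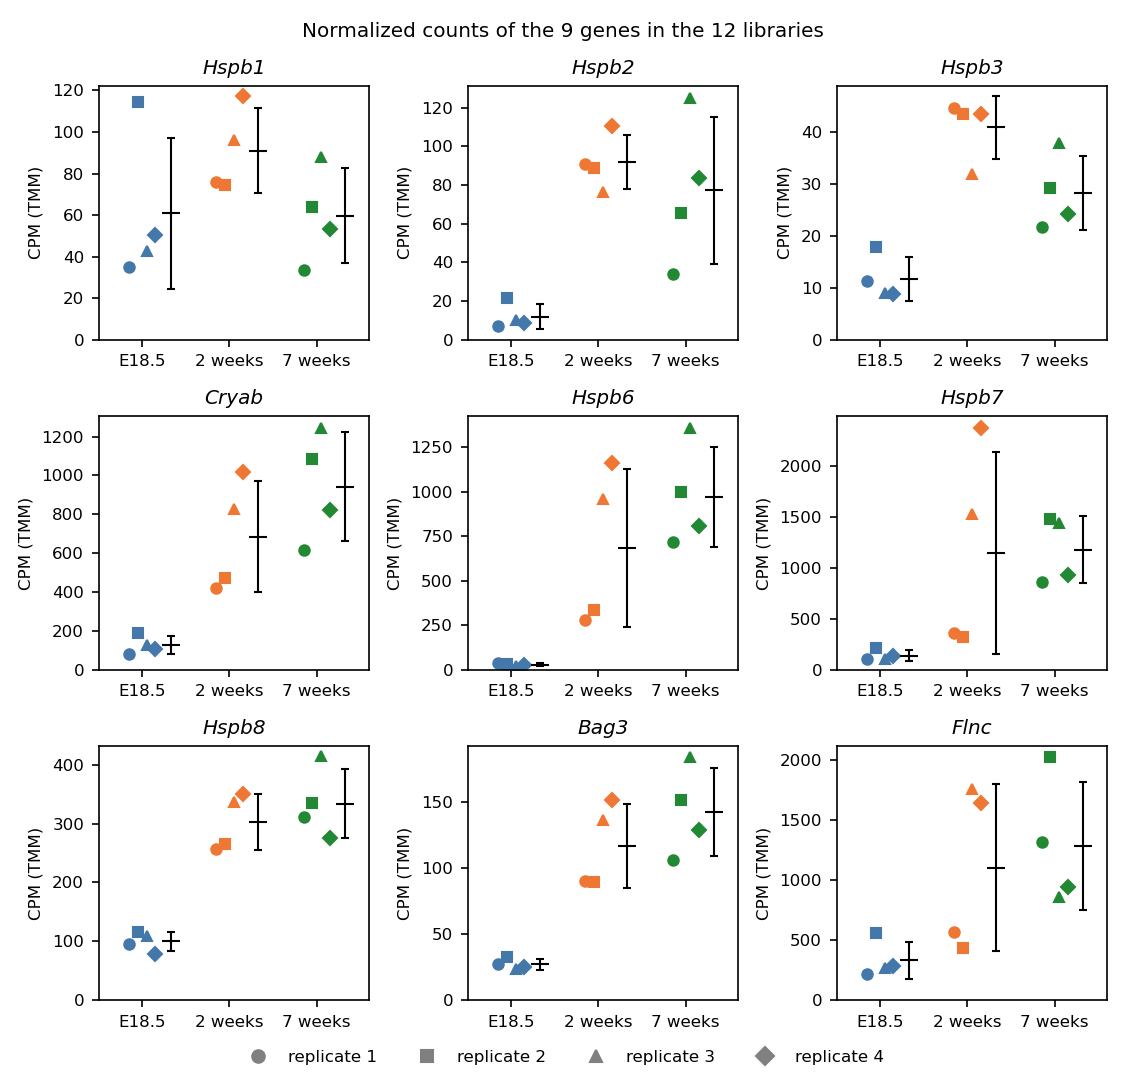
TMM-scaled CPM (linear axis from 0, its own range in each panel) of the 9 genes in each of the 12 libraries, with points by replicate and the mean and SD of 4 mice beside them. Apart from *Hspb1* and *Flnc*, the 2-wk libraries of every gene lie above all its E18.5 libraries, and at 2 wks *Hspb6*, *Hspb7* and *Flnc* fall into 2 low and 2 high libraries.

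*Hspb8* and *Bag3* encode the core of the selective autophagy complex. *Hspb8* (ENSMUSG00000041548, chr5:116408491-116422864, minus strand) had 95.7, 116, 109 and 78.2 CPM in E18.5 replicates 1 to 4, 258, 265, 336 and 351 at 2 wks, and 311, 335, 415 and 276 at 7 wks. The E18.5 libraries stood apart from the rest, while the 2-wk and 7-wk libraries overlapped. It rose by 1.60 ± 0.18 on the log2 scale (SE, n = 4 per age) to 2 wks, with an adjusted p of 6.15e-06, and differed by 0.14 ± 0.18 after that (adjusted p = 0.581). The SDs of the 3 ages were 16.5, 48.0 and 58.8 CPM around means of 99.7, 302 and 334. *Bag3* (ENSMUSG00000030847, chr7:128523583-128546981, plus strand) had 27.3, 32.2, 23.3 and 24.6 CPM at E18.5, then 89.7, 88.9, 136 and 151 at 2 wks, and 106, 151, 184 and 128 at 7 wks. All later libraries were again above all E18.5 libraries. The rise to 2 wks was 2.12 ± 0.22 (adjusted p = 3.03e-06) and the step to 7 wks 0.29 ± 0.21 (adjusted p = 0.333).

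*Flnc* encodes the filamin of striated muscle, the client of that complex and a binding partner of Hspb7. *Flnc* (ENSMUSG00000068699, chr6:29433153-29461889, plus strand) had 212, 558, 263 and 286 CPM at E18.5, then 569, 433, 1754 and 1642 at 2 wks, and 1313, 2018, 853 and 942 at 7 wks. The groups of E18.5 and 2 wks overlapped, since E18.5 replicate 2 was above 2 wks replicate 2. The log2 fold change to 2 wks was 1.74 ± 0.46 with an adjusted p of 0.00461, and that from 2 to 7 wks 0.22 ± 0.45 (adjusted p = 0.749). The rise to 2 wks was no longer called with total-count scaling (0.76, adjusted p = 0.118), against a median of -1.02 over all tested genes, nor after removal of each library's trend over GC content (0.55, adjusted p = 0.283), against a median of -0.23. From E18.5 to 7 wks it rose by 1.96 ± 0.47 (adjusted p = 0.00182), and this was 0.69 and not called with total counts (adjusted p = 0.148). *Hspb7* (ENSMUSG00000006221, chr4:141420779-141425310, plus strand), a small heat shock protein of heart and skeletal muscle, had 105, 215, 103 and 139 CPM at E18.5. At 2 wks it had 359, 325, 1530.3 and 2375, a range of 7.32-fold among mice of 1 age, and at 7 wks 861, 1483, 1441 and 935. The lowest 2-wk library was still above the highest E18.5 library. It rose by 3.03 ± 0.56 to 2 wks (adjusted p = 0.00035) and differed by 0.04 ± 0.52 between 2 and 7 wks (adjusted p = 0.964).

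*Hspb6*, known from smooth muscle, where its phosphorylation goes with relaxation, had the largest change of the 9. *Hspb6* (ENSMUSG00000036854, chr7:30552535-30555443, plus strand) had 36.3, 34.1, 22.0 and 27.1 CPM at E18.5, then 279, 337, 962 and 1160.3 at 2 wks, and 717, 999.6, 1359 and 811 at 7 wks. From being 1 of the lower genes at E18.5 it came to stand beside *Cryab* and *Hspb7*. The rise to 2 wks was 4.52 ± 0.46 (22.9-fold, adjusted p = 2.38e-06), and from E18.5 to 7 wks it was 5.02 ± 0.47 (32.5-fold, adjusted p = 5.01e-07). Exons of *Hspb6* share 464 bp with *Lin37* and 198 bp with *Proser3* on the opposite strand, and because the strand setting of the counting is not given, its counts carry that uncertainty.

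*Cryab*, also a major protein of the lens, and *Hspb2* lie on opposite strands of chromosome 9, with the annotated span of *Hspb2* inside that of *Cryab*. *Cryab* (ENSMUSG00000032060, chr9:50745951-50756636, plus strand) had 79.9, 190.3, 127 and 109 CPM at E18.5, then 423, 471, 825 and 1017 at 2 wks, and 614, 1086, 1247 and 820.1 at 7 wks. It rose by 2.43 ± 0.34 to 2 wks (adjusted p = 3.69e-05) and differed by 0.46 ± 0.33 after that (adjusted p = 0.313). *Hspb2* (ENSMUSG00000038086, chr9:50751072-50752354, minus strand), which forms a complex with Hspb3, had 7.08, 21.4, 9.95 and 8.74 CPM at E18.5, then 91.0, 88.9, 76.6 and 111 at 2 wks, and 34.2, 65.5, 125 and 83.8 at 7 wks. The 2-wk libraries lay close together, while the 7-wk libraries spanned 3.66-fold. Its rise to 2 wks was 2.96 ± 0.39 (adjusted p = 2.28e-05), followed by -0.25 ± 0.37 (adjusted p = 0.648). Annotated exons of *Cryab* and *Hspb2* share 757 bp on opposite strands, and those of *Cryab* share 871 bp with *2310030G06Rik*, so reads there could fall to either gene. Markers of lens other than *Cryab* summed to at most 0.359 CPM at E18.5, with *Crybb2* at 0.

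*Hspb3* (ENSMUSG00000051456, chr13:113662896-113663676, minus strand), a gene of 1 exon whose protein pairs with Hspb2, had 11.3, 17.9, 9.02 and 8.89 CPM at E18.5, then 44.8, 43.6, 32.0 and 43.5 at 2 wks, and 21.7, 29.3, 37.9 and 24.3 at 7 wks. It rose by 1.80 ± 0.24 to 2 wks (adjusted p = 2.39e-05). Between 2 and 7 wks its difference was -0.53 ± 0.23, with an adjusted p of 0.108, and 3 of the 7-wk libraries lay below every 2-wk library. The difference passed the threshold with total-count scaling (-0.89, adjusted p = 0.0118), in a fit of only the 8 libraries compared (-0.57, adjusted p = 0.0365), without 7 wks replicate 3 (-0.70, adjusted p = 0.0472) and without E18.5 replicate 2 (-0.53, adjusted p = 0.0439). With total-count scaling its difference from E18.5 to 7 wks was -0.01 (adjusted p = 0.966), where TMM gave a rise of 1.27 ± 0.24 (adjusted p = 0.000286).

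*Hspb1*, the small heat shock protein found in most tissues, had no called change under TMM. *Hspb1* (ENSMUSG00000004951, chr5:135887919-135889563, plus strand) had 35.1, 115, 42.9 and 50.6 CPM at E18.5, then 75.8, 74.3, 96.4 and 118 at 2 wks, and 33.4, 63.9, 88.1 and 53.3 at 7 wks. E18.5 replicate 2 lay between the highest 2-wk library and the others, and the other E18.5 libraries were below all 2-wk libraries. The log2 fold changes were 0.58 ± 0.35 to 2 wks (adjusted p = 0.161), -0.61 ± 0.35 from 2 to 7 wks (adjusted p = 0.218) and -0.03 ± 0.35 from E18.5 to 7 wks (adjusted p = 0.95). Without E18.5 replicate 2 the rise to 2 wks was 1.09 and was called (adjusted p = 0.0045). That library also held the most epidermal marker RNA, 57.8 CPM over the 6 matched genes against 6.97 to 20.5 in the other E18.5 libraries, and its part in the result was not tested. The direction hung on the normalization. With total counts the change to 2 wks was -0.36 (adjusted p = 0.337), that from 2 to 7 wks -0.95 (adjusted p = 0.0436) and that from E18.5 to 7 wks -1.31 (adjusted p = 0.00252). With the GC trend removed *Hspb1* fell by 0.77 from E18.5 to 2 wks (adjusted p = 0.00486) and by 0.98 from E18.5 to 7 wks (adjusted p = 0.000735). Its change from 2 to 7 wks was then -0.21 and not called (adjusted p = 0.461).

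**Figure D2:**
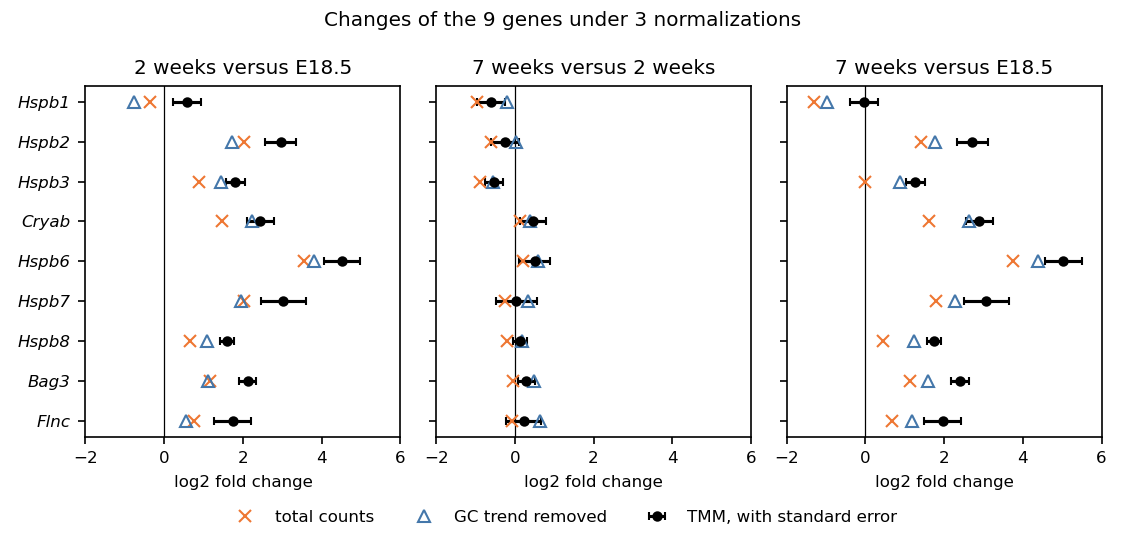
Log2 fold change (x axis) of the 9 genes in the 3 comparisons, as TMM estimates with SE (black), with scaling to total counts (crosses) and with the GC trend of each library removed (triangles). *Hspb6* is farthest to the right in both comparisons with E18.5, *Hspb1* changes side with the normalization, and the values from 2 to 7 wks lie around 0.

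The placing of the change before 2 wks was tested as the difference between the log2 fold change to 2 wks and that from 2 to 7 wks. It was called for 7 of the 9 genes, each with the larger rise in the earlier interval (21.6% of all tested genes). It was 4.01 ± 0.66 for *Hspb6* (adjusted p = 0.000605), 3.21 ± 0.61 for *Hspb2* (adjusted p = 0.00157) and 2.33 ± 0.39 for *Hspb3* (adjusted p = 0.00074). For the others it ran from 1.46 ± 0.30 (*Hspb8*, adjusted p = 0.00252) to 2.99 ± 0.87 (*Hspb7*, adjusted p = 0.0165). *Flnc* (1.52 ± 0.76, adjusted p = 0.129) and *Hspb1* (1.19 ± 0.60, adjusted p = 0.13) did not pass. For *Hspb7* the call was lost without 2 wks replicate 3 (2.66, adjusted p = 0.0529) or replicate 4 (1.73, adjusted p = 0.13), and for *Cryab* without 2 wks replicate 4 (1.47, adjusted p = 0.069). *Flnc* was called without 2 wks replicate 2 (2.06, adjusted p = 0.0495) and *Hspb1* without E18.5 replicate 2 (1.70, adjusted p = 0.00927). With the GC trend removed 5 of the 9 were called, where 17.2% of all tested genes were called in this direction, and *Hspb7* (1.63, adjusted p = 0.153) and *Bag3* (0.63, adjusted p = 0.2) were not among them.

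The genes also differed among mice of the same age, and often together. At 2 wks replicates 1 and 2 were low and replicates 3 and 4 high for 7 of the 9 genes, all but *Hspb2* and *Hspb3*. Deviations of log2 CPM from the mean of the age were -1.17 and -1.31 in replicates 1 and 2 for *Hspb7*, against 0.92 and 1.56 in replicates 3 and 4, while for *Hspb2* they ran only from -0.25 to 0.28. In *Hspb2* and *Hspb3* replicate 3 was the lowest. Over the 9 genes together, 2126 to 2189 CPM were counted in replicates 1 and 2 and 5748 to 6968 in replicates 3 and 4. The same libraries differed in marker sums, with 93035 and 93351 CPM of fibre markers in replicates 1 and 2 against 113399 and 125361 in replicates 3 and 4, 477 and 756 against 146 and 148 CPM of red blood cell markers (7 genes), and 631 and 242 against 213 and 135 of Schwann cell markers (6 genes), all of them detected. The summed fibroblast and tendon markers (8 genes) were at 4716 and 4784 against 4436 and 3351, but the tendon genes *Tnmd* (6.16 and 7.41 against 32.3 and 26.0) and *Fmod* (26.2 and 33.9 against 144 and 119) were higher in replicates 3 and 4, and so was *Comp* (2.00 and 1.94 against 13.5 and 11.4). The part of these differences in the result was not tested.

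At E18.5 replicate 2 was the highest library for 8 of the 9 genes, all but *Hspb6*. At 7 wks replicate 3 was the highest for 7 genes and replicate 1 the lowest for 7, with *Flnc* going the other way, lowest in replicate 3. Of the 7-wk libraries, replicate 1 had the lowest sum of fibre markers (110390 CPM) and replicate 3 the highest (140333). Replicate 1 also had the most fibroblast and tendon marker RNA (2999 CPM, against 816 to 1377 in the others) and macrophage marker RNA (6 genes, 109.6 CPM, against 39.9 to 57.3), and the part of these differences was not tested. With E18.5 replicate 2 and 2 wks replicate 4 left out together, an alternative chosen after seeing the data, 9 of the 9 genes rose to 2 wks (29.9% of the genes tested in that fit), 0 were called from 2 to 7 wks (27.2%, either direction) and 8 rose from E18.5 to 7 wks (33.9%). Over the deviations of the 12 libraries from their age means, Pearson's r was 0.92 between *Hspb6* and *Hspb7*, 0.92 between *Hspb6* and *Bag3* and 0.90 between *Hspb1* and *Hspb2*, but 0.04 between *Hspb3* and *Flnc*. These describe the 12 libraries, whose depth and marker content the genes share.

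**Figure D3:**
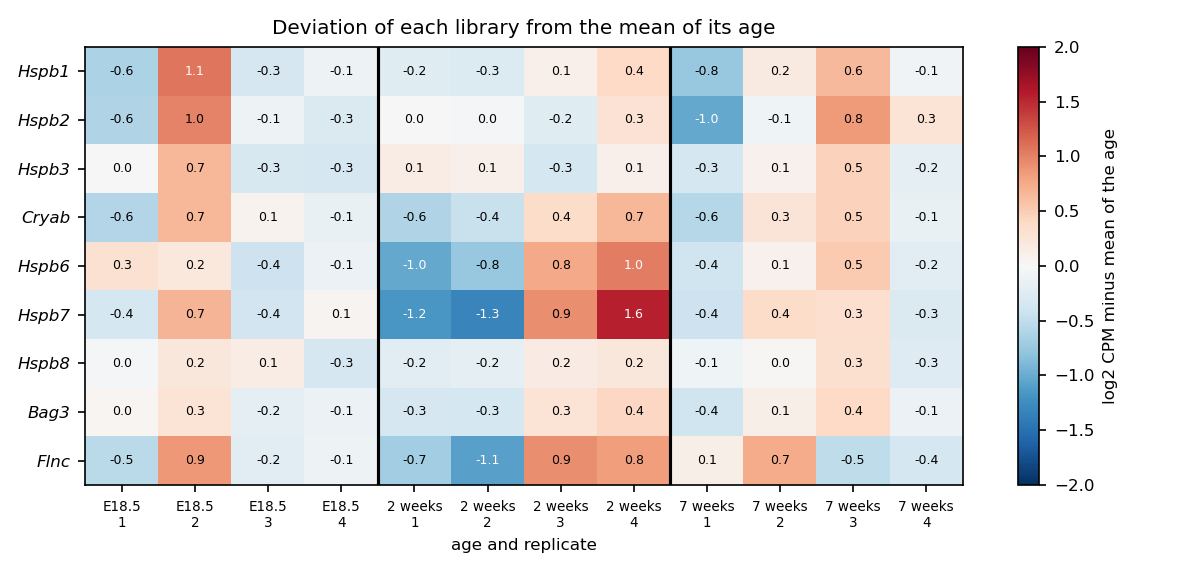
Deviation of log2 CPM from the mean of its age (colour and printed value) for the 9 genes in the 12 libraries, with columns by age and replicate. E18.5 replicate 2 is high for nearly all genes, and at 2 wks replicates 3 and 4 are high and replicates 1 and 2 low for all genes but *Hspb2* and *Hspb3*.

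To compare levels between genes, CPM were divided by the length of the canonical transcript in kb. At E18.5 the mean level per kb was highest for *Cryab*, 74.9 ± 27.7 CPM per kb (SD, n = 4), followed by *Hspb1* with 66.4 ± 39.8, *Hspb7* with 50.7 ± 18.8, *Hspb8* with 47.1 ± 7.80 and *Flnc* with 36.0 ± 17.0. *Hspb3* (15.1 ± 5.41), *Hspb2* (11.4 ± 6.26), *Bag3* (10.3 ± 1.50) and *Hspb6* (9.82 ± 2.15) formed a lower set, and the only neighbours in this order whose libraries did not overlap were *Flnc* and *Hspb3*. At 2 wks *Hspb7* (414 ± 358), *Cryab* (405 ± 169) and *Hspb6* (225 ± 146) stood at the top with overlapping libraries, before *Hspb8* (143 ± 22.7), *Flnc* (120.2 ± 76.0), *Hspb1* (99.3 ± 22.2), *Hspb2* (88.4 ± 13.6), *Hspb3* (52.4 ± 7.71) and *Bag3* (44.5 ± 12.2), and only *Hspb2* and *Hspb3* among neighbours did not overlap. At 7 wks *Cryab* (557 ± 166), *Hspb7* (426 ± 118) and *Hspb6* (319 ± 93.2) led, clear of *Hspb8* (158 ± 27.8). *Flnc* (140.1 ± 57.9), *Hspb2* (74.4 ± 36.6), *Hspb1* (65.2 ± 24.9), *Bag3* (54.3 ± 12.7) and *Hspb3* (36.3 ± 9.12) followed with overlapping neighbours. *Hspb6* thus moved from rank 9 to rank 3 and *Hspb1* from rank 2 to rank 7. With the length of all annotated exons in place of the canonical transcript, chosen after seeing the data, *Cryab* stood at rank 5 at E18.5 and rank 3 at 7 wks, and *Hspb7* led at 7 wks.

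Fibre marker RNA took a larger part of the older libraries, and the genes were also set against it, as counts per 1000 counts on the 8 fibre markers of the same library, a scale added after seeing the data. On this scale *Hspb6* was higher at both later ages than at E18.5, at 2.13 ± 0.36 (SD, n = 4), 6.08 ± 3.24 and 7.95 ± 1.50, with no overlap between E18.5 (at most 2.62) and 2 wks (at least 3.00). *Hspb7* had means of 9.75 ± 1.59, 9.94 ± 7.58 and 9.73 ± 2.38, with 2-wk libraries from 3.48 to 18.9, and *Cryab* of 8.96 ± 2.55, 6.24 ± 1.72 and 7.72 ± 1.78. *Hspb2* was at 0.805 ± 0.264, 0.872 ± 0.137 and 0.622 ± 0.246. *Hspb8* was lower after birth, at 7.27 ± 1.96, 2.84 ± 0.0853 and 2.76 ± 0.27, and *Bag3* at 1.93 ± 0.21, 1.08 ± 0.14 and 1.17 ± 0.17. *Hspb1* went from 4.09 ± 1.40 to 0.850 ± 0.063 and 0.485 ± 0.141. *Hspb3* (0.816, 0.394 and 0.232) and *Flnc* (22.7, 9.83 and 10.9) were also lower on average at both later ages. These values have no test, and the fibre markers themselves were chosen as genes of mature fibres.

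Ratios of 2 genes within a library do not depend on how libraries are scaled. The ratio of *Flnc* to *Flna*, the filamin of most cells, was 1.10, 1.59, 0.968 and 1.12 per kb at E18.5, then 1.91, 1.88, 6.93 and 8.05 at 2 wks, and 8.54, 13.1, 9.25 and 6.80 at 7 wks. It was higher in every library of 2 wks and of 7 wks than in every library of E18.5. Its geometric mean was 1.17, 3.76 and 9.16 at the 3 ages, with a two-sided exact permutation p of 0.0286 from E18.5 to 2 wks and from E18.5 to 7 wks and of 0.0857 from 2 to 7 wks. With 4 mice against 4 the smallest p possible is 0.0286, and adjusted over the 15 ratio tests it became 0.0714 here, so that no ratio passed the threshold.

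The ratio of *Hspb2* to *Hspb3*, whose proteins form a complex, had a geometric mean of 0.715 at E18.5, then 1.69 at 2 wks and 1.89 at 7 wks, without overlap between E18.5 and either later age (exact permutation p = 0.0286 for both, adjusted 0.0714). That of *Bag3* to *Hspb8* moved less, from 0.219 to 0.306 and 0.341, with the same exact p-values for the comparisons with E18.5. The ratio of *Cryab* to *Hspb2* was 6.91, 4.32 and 8.01 (exact permutation p = 0.0857 to 2 wks and 0.114 after), and at 2 wks it was 2.86 and 3.25 in replicates 1 and 2 against 6.62 and 5.65 in replicates 3 and 4. *Flnc* to *Bag3* was 3.30, 2.32 and 2.48 (exact permutation p = 0.257 and 0.8). Both for *Cryab* to *Hspb2* and for *Flnc* to *Bag3* the ranges of the 3 ages overlapped.

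**Figure D4:**
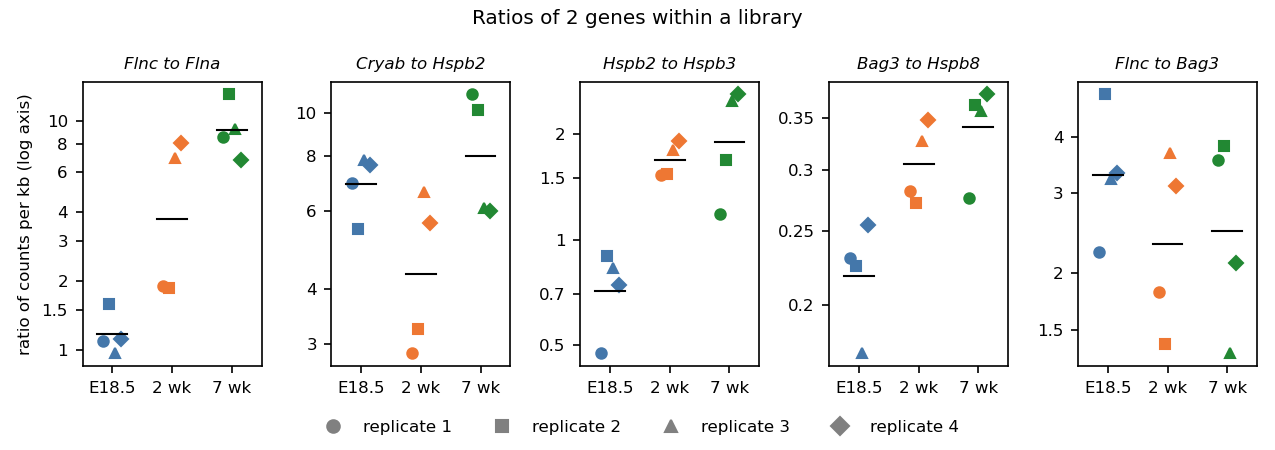
Ratios of counts per kb of 2 genes within each library (log axes), by age, with points by replicate and bars at the geometric mean of 4 libraries. *Flnc* to *Flna*, *Hspb2* to *Hspb3* and *Bag3* to *Hspb8* are higher in every library of 2 wks than at E18.5.

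Of the 12 partners of selective autophagy, 6 rose to 2 wks, 1 fell and 5 were not called, where 31.5% of all tested genes rose and 34.2% fell. Their median log2 fold change was 0.23 (-0.09 over all tested genes). The largest rises were those of *Sqstm1*, the autophagy receptor p62, by 2.22 ± 0.22 (adjusted p = 1.85e-06), and *Synpo2*, which binds Bag3 and filamin C at the Z-disc, by 1.90 ± 0.21 (adjusted p = 4.24e-06). *Stub1*, the ligase CHIP, rose by 1.81 ± 0.29 (adjusted p = 9.56e-05). Of the Hsp70 genes in the list, *Hspa8*, the constitutive form, rose by 0.42 ± 0.16 (adjusted p = 0.031), and *Hspa1b*, the inducible form, fell by 1.38 ± 0.50 (adjusted p = 0.0252), at no more than 1.43 CPM on average at any age. *Hspa1a* and *Hspa1b* are near-identical copies that share reads, so their split is uncertain. From 2 to 7 wks 3 rose, *Tsc1* by 1.04 ± 0.16 (adjusted p = 0.000598), *Sqstm1* by 0.88 ± 0.21 (adjusted p = 0.0077) and *Synpo2* by 0.69 ± 0.20 (adjusted p = 0.0214), and 0 fell (13.5% and 13.9% of all tested genes). Scaled to total counts, 4 rose and 7 fell to 2 wks (13.2% and 61.9% of all tested genes), with *Hspa8* at -0.51.

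*Flna*, which links actin in most cells, was not called to 2 wks (-0.12 ± 0.21, adjusted p = 0.642) and fell by 0.87 ± 0.21 from 2 to 7 wks (adjusted p = 0.00831). Of the 15 filamins and filamin C partners beside *Flnc*, 11 rose to 2 wks and 0 fell (31.5% and 34.2% of all tested genes), with a median of 1.55. *Igfn1*, a Z-disc protein, rose by 4.42 ± 0.44 (adjusted p = 2.21e-06) from 0.993 CPM, and *Xirp2*, an actin-binding repeat protein, by 3.29 ± 0.36 (adjusted p = 4.82e-06). *Des*, the intermediate filament desmin that Cryab binds, rose by 2.25 ± 0.31 (adjusted p = 3.06e-05). From 2 to 7 wks 4 rose, led by *Xirp2* (1.39 ± 0.34, adjusted p = 0.00852) and *Myot*, the Z-disc protein myotilin (0.75 ± 0.25, adjusted p = 0.0371), and 3 fell, led by *Fblim1*, a filamin-binding adaptor (-2.28 ± 0.19, adjusted p = 1.02e-05). In that interval 13.5% of all tested genes rose and 13.9% fell. Scaled to total counts, 8 rose and 4 fell to 2 wks (13.2% and 61.9% of all tested genes).

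Of 22 large chaperone genes, those of Hsp70, Hsp90, Hsp60 and J-domain proteins, 7 rose to 2 wks, 10 fell and 5 were not called, beside 31.5% and 34.2% of all tested genes, and their median was -0.36. *Hspa1l* (3.37 ± 0.30, adjusted p = 8.51e-07) and *Dnajb5* (2.13 ± 0.20, adjusted p = 1.17e-06) rose most. *Hsp90aa1*, the Hsp90 form that folds myosin in developing muscle, fell by 2.11 ± 0.19 (adjusted p = 8.85e-07), and *Hsp90b1*, that of the endoplasmic reticulum, by 1.60 ± 0.21 (adjusted p = 2e-05). To 7 wks, 7 then rose, *Hsph1* by 0.90 ± 0.16 (adjusted p = 0.00157) and *Dnajb2* by 0.87 ± 0.18 (adjusted p = 0.00363), and 1 fell, *Dnajb1*, a partner of Hsp70, by 0.57 ± 0.15 (adjusted p = 0.0134). In that interval 13.5% of all tested genes rose and 13.9% fell. Scaled to total counts, 3 rose and 18 fell to 2 wks, beside 13.2% and 61.9% of all tested genes. The muscle myosin chaperones beside *Hsp90aa1*, *Unc45b*, *Unc45a*, *Smyd1* and *Smyd2*, all 4 rose to 2 wks, by 1.26 to 1.73 (2 of them with total counts), and *Smyd2*, a methyltransferase that acts on Hsp90, rose again by 1.77 ± 0.33 to 7 wks (adjusted p = 0.0018).

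**Figure D5:**
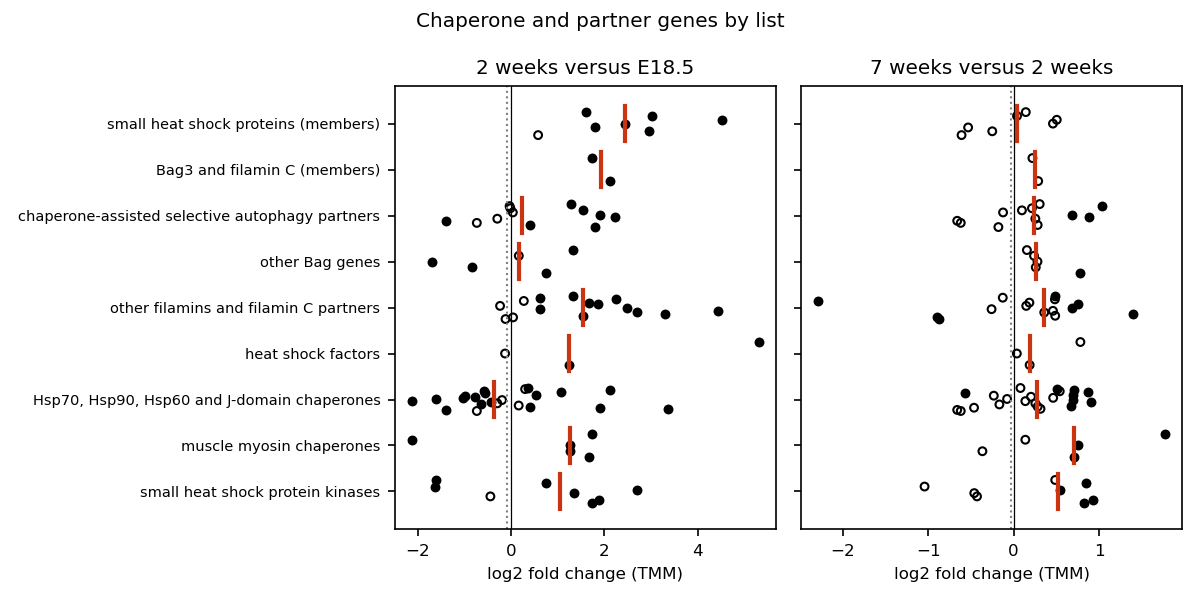
Log2 fold change (TMM) of each tested gene of the 9 and of the lists beside them, filled where the adjusted p was under 0.05, with the list median as a red bar and the median of all tested genes as a dotted line. To 2 wks the medians of the 7 small heat shock proteins (2.43) and of *Bag3* and *Flnc* (1.93) lie to the right, and that of the large chaperones (-0.36) to the left of 0.

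Among heat shock factors, *Hsf4* rose by 5.30 ± 0.45 to 2 wks (adjusted p = 5.29e-07), from 0.0594 to 2.44 CPM, and *Hsf1*, the main factor of the stress response, by 1.23 ± 0.24 (adjusted p = 0.000448). *Hsf2* was not called (-0.13 ± 0.22, adjusted p = 0.63), *Hsf5* had too few counts to be tested, and from 2 to 7 wks 0 of the 3 were called. Of 8 kinases that act on small heat shock proteins 5 rose to 2 wks and 2 fell, beside 31.5% and 34.2% of all tested genes. *Mapk12*, a p38 kinase of muscle, rose by 2.70 ± 0.16 (adjusted p = 2.61e-08) and *Mapkapk2*, which phosphorylates Hspb1, by 1.73 ± 0.18 (adjusted p = 3.16e-06), while *Mapk13* fell by 1.63 ± 0.46 (adjusted p = 0.00662) at under 0.5 CPM. Between 2 and 7 wks 4 of them rose and 0 fell (13.5% and 13.9% of all tested genes), *Mapkapk3* by 0.93 ± 0.19 (adjusted p = 0.00298). Of the 5 other Bag genes 2 rose to 2 wks and 2 fell, beside 31.5% and 34.2% of all tested genes. *Bag6* (1.33 ± 0.24, adjusted p = 0.000311) and *Bag1* (0.75 ± 0.16, adjusted p = 0.00127) rose. *Bag4* (-1.70 ± 0.23, adjusted p = 2.6e-05) and *Bag2* (-0.83 ± 0.17, adjusted p = 0.000769) fell, and *Bag1* rose again to 7 wks (0.78 ± 0.17, adjusted p = 0.00391). Scaled to total counts, 0 of the Bag genes rose to 2 wks and 3 fell, with *Bag1* at -0.19, while 3 of the kinases rose and 3 fell, with *Mapk14* at -0.20, and 1 of the heat shock factors rose and 1 fell, with *Hsf1* at 0.30. With that scaling 13.2% of all tested genes rose to 2 wks and 61.9% fell. The remaining small heat shock family genes *Cryaa*, *Hspb9* and *Odf1* had at most 13 counts in any library.

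Smooth muscle and pericytes also use several of these genes. The 8 markers of these cells, all detected, summed to 429 to 658 CPM at E18.5, then 1126 to 1728 at 2 wks and 1000.4 to 1201 at 7 wks, and those of cardiomyocytes (6 genes) to 114 to 211, 14.3 to 35.9 and 7.90 to 15.9. The cardiomyocyte sum was mostly *Tnnt2*, a troponin that developing skeletal muscle also makes, with 102 to 184 CPM at E18.5. To 2 wks *Tnnt2* (-3.62, adjusted p = 1.16e-06), *Mybpc3* (-5.19, adjusted p = 3.87e-05) and *Ryr2* (-1.64, adjusted p = 0.000756) fell. *Mybpc3* and *Ryr2* had at most 0.356 and 1.49 CPM at E18.5. *Myh6* was not called to 2 wks (-0.18, adjusted p = 0.695), *Tnni3* rose by 0.86 (adjusted p = 0.0216) and *Nppa* was at most 0.245 CPM. At 2 wks the smooth muscle sum was highest in replicate 1, where *Acta2* made up 681 of 1728 CPM. The smooth muscle genes *Myh11*, *Tagln*, *Smtn* and *Cnn1* were highest in replicate 4, *Myh11* with 105 CPM against 65.2 to 91.2. *Lmod1*, of the same list, went the other way and was lowest in replicate 4, with 12.4 CPM. *Acta2*, *Rgs5* and *Kcnj8* were at neither end in that library. The part of these cells in the levels of the 9 genes was not tested.

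The genes whose profile over the 12 libraries was most like each of the 9 were sought among the 8947 genes whose log2 CPM averaged 3 or more. *Hspb6* and *Bag3* were each other's nearest gene (Pearson's r of log2 CPM 0.994), and *Bag3* was also second for *Hspb8* (0.984), after *Adamtsl5* (0.984). *Flnc* and *Hspb7* shared *Lmcd1*, a LIM protein of striated muscle, as their nearest (0.977 for both), followed for *Hspb7* by the Z-disc genes *Pdlim3* (0.975) and *Actn2* (0.969). *Hspb6* was next most like *Ckmt2*, the mitochondrial creatine kinase (0.994), and *Bag3* like *Cltb* (0.993) and *Tcap*, the titin cap (0.992). *Hspb2* was nearest to *Psmb5*, a proteasome subunit (0.996), *Cryab* to *Iqsec2* (0.994), *Hspb3* to *Ufsp1* (0.976) and *Hspb1* to *Commd7* (0.93). These correlations describe 12 libraries in 3 age groups that differ in composition, and many genes that separate E18.5 from the later ages have similar profiles.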

How the data were processed

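RNA of the TA of 4 WT mice at each of 3 ages was sequenced as polyA-selected stranded libraries with paired reads of 100 bp. Per the labels, the authors used cutadapt 1.10 for trimming and STAR 2.5.3a for mapping, and deposited raw counts per Ensembl gene made with HTSeq 0.6.1p1. The labels name mm10 and the methods name GRCm39 as the genome, and the strand setting and annotation of the counting are not given in the sources used here.

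Counts of 55450 genes were scaled by TMM and tested in edgeR 4.0.16 by quasi-likelihood, with limma 3.58.1 under R 4.3.3, in a fit of all 12 libraries with age as the only term. filterByExpr kept 19276 genes. Over these, p-values received a Benjamini-Hochberg adjustment, with a threshold of 0.05. Ratios of gene pairs, from counts per kb, were compared with two-sided exact permutation tests of log2 ratios. Log2 CPM used a prior count of 1. The procedure was tested on simulated data. No 2 libraries of an age agreed within counting error (chi-square per degree of freedom at least 31.2), so no library was counted as a copy of another. Each of the 9 genes had at least 1022 counts in every library, and the spread between mice is given as the error.

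The 9 genes, the lists beside them and the tests were chosen with earlier results of these data known. All genes of the lists could be named, and those with the largest called rise and fall were singled out, apart from 1 that is not reported here. For likeness, the 3 genes of highest correlation with each of the 9 were taken. Among the alternatives, other scalings were total counts, the upper quartile and TMM computed without 37 mitochondrial and 20 highly abundant genes. DESeq2 1.42.0 replaced edgeR, and the filter was dropped or set to a minimum of 10 counts per library. Other fits removed each library's trend over GC content or over transcript length, held replicate number as a block, used only the 8 libraries compared, tested against a log2 fold change of 1 with glmTreat, or left out 1 library. Leaving out a pair of libraries together, length over all exons and the scale per fibre count were added after seeing the data. Gene names, lengths, GC content and exon overlaps come from GENCODE vM39, in which 51477 of the 55450 identifiers were found, and coordinates and promoter windows from RefSeq on GRCm38.p6. Tables were handled with pandas 2.3.3 and figures drawn with matplotlib 3.10.9.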

Additional observations from a re-analysis of the deposited data

Results flagged for a closer look

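In 1 of 42 sets of 4 libraries examined, 1 library lay far from the other 3 of its age by Dixon's test, where about 2.1 such sets are given by chance at 1 in 20. It was *Hspb3* at 2 wks, with 32.0 CPM in replicate 3 against 43.5 to 44.8 CPM in the other 2-wk libraries. The 42 sets cover the levels of the 9 genes and the ratios of gene pairs at each age. In the same library *Hspb2* was also at its lowest of that age, with 76.6 CPM against 88.9 to 111 CPM. *Hspb1*, *Cryab*, *Hspb6*, *Hspb7*, *Hspb8*, *Bag3* and *Flnc* were above their 2-wk mean there. The cause was not tested.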

How the results depend on the processing

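The rises to 2 wks of *Hspb2*, *Hspb3*, *Cryab*, *Hspb6*, *Hspb7*, *Hspb8* and *Bag3* were called under every alternative run. Results that changed sign or side, and counts of genes that moved most, are given here with their values, and the cause was not tested except where an alternative asks for a larger change. With a log2 fold change beyond 1, 5507 genes in place of 12668 were called from E18.5 to 2 wks, 561 in place of 5296 from 2 to 7 wks, 7574 in place of 13755 from E18.5 to 7 wks, and 2463 in place of 7398 (4 of the 9 genes) for the difference of the intervals. From 2 to 7 wks, 2 of the 9 were called lower with total counts, beside 28.0% of all tested genes. In the fit of only the 8 libraries compared 1 was called, and the share over all genes in that fit is not given here. *Hspb1* changed sign to 2 wks with the GC trend removed (-0.77), the length trend removed (-0.49) and total counts (-0.36). From E18.5 to 7 wks *Hspb1* was at 0.48 with E18.5 replicate 2 and 2 weeks replicate 4 left out together, and called lower with the length trend removed (-1.05, adjusted p = 0.00254). With the GC trend removed the difference of the intervals was -0.56 for *Hspb1* and -0.0905 for *Flnc*, and *Hspb2* was at 0.0422 from 2 to 7 wks. With total counts *Hspb3* was at -0.0115 from E18.5 to 7 wks, and from 2 to 7 wks *Hspb7* was at -0.24, *Hspb8* at -0.20, *Bag3* at -0.0435 and *Flnc* at -0.0723. With upper-quartile scaling *Hspb7* was at -0.0508 in that interval. With the length trend removed *Hspb3* was not called from E18.5 to 7 wks (0.13) and *Hspb8* not for the difference (0.69). With each library left out in turn, the genes called from 2 to 7 wks ranged from 3472 (without 2 weeks replicate 1) to 6145, and the members called from 0 to 1. The log2 fold change of *Hspb1* from E18.5 to 7 wks ranged from -0.27 to 0.48, that of *Hspb7* from 2 to 7 wks from -0.27 to 0.68, that of *Flnc* from -0.0856 to 0.54, and the log2 ratio of *Flnc* to *Bag3* from -0.15 to 0.40. Correlations of deviations between libraries of the same replicate number ran from -0.308 to 0.578, and 5 of 12 were over 0.1, so the numbers were not taken to pair the mice. A library correlated best with its own number in 8 of 24 cases. With the replicate number as a block, 8 of the 9 were called to 2 wks and 0 from 2 to 7 wks. *Hspb1* was then at 0.014 from E18.5 to 7 wks. The difference of the intervals for *Hspb7* was 2.50 (adjusted p = 0.0517), so that 6 in place of 7 were called for it. The fit without the block called 65.7% of all tested genes to 2 wks, 27.5% from 2 to 7 wks and 38.4% for the difference, either direction. Shares with the block are not given here. Depth did not limit the 9 genes, but *Cryaa*, *Hspb9*, *Odf1* and *Hsf5* had too few counts to be tested.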
